A study of Mus musculus with 8 samples.

Results

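The BCL2 family decides whether a cell starts to die through its mitochondria, and 10 of its genes were followed in mouse retinas kept in 75% oxygen. The genes were 4 survival members (*Bcl2*, *Bcl2l1*, *Bcl2l2* and *Mcl1*) and 6 killer members (*Bcl2l11*, *Bik*, *Bmf*, *Hrk*, *Bid* and *Bad*). A probe set, which is a group of short probes for 1 transcript, was taken when its annotation gave 1 of these symbols alone. All 10 genes were measured, by 37 of 45037 probe sets, of which 19 were of survival members and 18 of killer members. The array named 18193 genes in all. The rule used gene symbols and no measured value.

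Survival members bind and hold in check the proteins that make pores in the outer mitochondrial membrane, and so keep cytochrome c inside. Killer members of the kind studied here carry only the short BH3 segment of the family. They fill the groove of the survival members or act on the pore-forming proteins directly, and they are known to take part in photoreceptor and ganglion cell death in retinal disease. Many of these proteins are also controlled after transcription, by cleavage (*Bid*), phosphorylation (*Bad*) or rapid breakdown (*Mcl1*), which RNA levels do not show.

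Retinas came from adult C57BL/6J mice, at postnatal days 80 to 120 by the labels, raised in dim cyclic light (12 h at 5 lux, then darkness). Control mice (day 0) had no hyperoxia, and the other mice spent 3, 7 or 14 days in 75% oxygen. Each time had 2 arrays, 8 in all, hybridised with RNA of pooled retinas from males and females. The methods describe a pool of retinas for each time and do not say whether both arrays of a time came from it, so the p-values measure the spread between arrays, which may be technical. The whole retina was used, and fewer cells of a type and less RNA per cell cannot be told apart.

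The deposited values are log2 values centred on each probe set's median over the 8 arrays. They give differences between arrays and no level, so the levels of 2 genes cannot be set against each other and the tissue could not be checked by the level of its markers. The SD of all probe sets was 0.19 to 0.25 on 4 arrays and 0.34 to 0.41 on both day 3 arrays, day 7 replicate 2 and day 14 replicate 2. Replicate 2 of day 3 and replicate 2 of day 14 stood apart. The 10 genes of reactive glia had medians of 1.66 and 1.47 there against -0.38 to 0.25 elsewhere, and the 12 genes of microglia and macrophages had 1.50 and 1.21 against -0.29 to 0.26. The 3' minus the 5' probe set of *Gapdh*, a measure of RNA length, gave 1.19 and 1.43 on these arrays and at most 0.12 on the others. The quality table of the study sets both day 14 arrays apart by its *Gapdh* ratio, and neither day 3 array. It thus conflicts with these values on day 3 replicate 2 and day 14 replicate 1. Whether each title belongs to its array could not be settled here, so arrays are called by their labels and every day 3 and day 14 value rests on those labels. For beta-actin the 3' minus 5' difference was also highest on these arrays, and it was lowest on day 7 replicate 2 (-0.94) and day 3 replicate 1 (-0.52). Lens genes (12 of 13 listed were measured) had a median of 3.49 on day 7 replicate 2 and -3.00 to 2.26 on the others.

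Markers of other cells moved between the times too, and their part in the members' values was not tested. Genes of rods (8 of 10 listed were measured) had medians of -0.45 and -0.30 on the day 3 arrays and 0.03 and -0.33 on the day 14 arrays, against 0.04 and 0.06 in control. Genes of bipolar cells (6 of 8) had -0.17 and -0.53 at day 3 and -0.14 and -0.79 at day 14, against 0.08 and 0.36 in control. Those of Muller glia (6 of 6) had -0.23 and -0.51 at day 3 and -0.03 and -0.68 at day 14, against -0.01 and 0.18 in control. Genes of the cornea (7 of 7) had -1.21 and -1.53 at day 3 and 1.48 and 0.03 at day 14, against 0.91 and 2.04 in control. Rod and bipolar genes were lower on both day 3 arrays than on either control array, and so were those of Muller glia and the cornea.

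None of the 37 probe sets passed the test for a difference between times in limma, a linear model with a shared estimate of the spread, once p-values were adjusted over all probe sets. At day 3, 0 of 37 passed (0% of all probe sets), with a lowest adjusted p of 0.471 in limma. At an unadjusted p under 0.05, 5 of 37 differed from control at day 3, 1 of them higher and 4 lower, where 10.3% of all probe sets did. *Bcl2*, *Bcl2l11* on 2 probe sets and *Bmf* supplied the 4 lower ones and *Bad* the higher one. At day 7 the count was 0 of 37 (0.864% of all) and at day 14 it was 2 of 37 (8.27% of all), 1 each for *Hrk* and *Bcl2l2*, both higher. After adjustment 0 of 37 passed at both times and 0% of all probe sets did, with lowest adjusted p of 1 and 0.462 in limma. Day 14 differed from day 3 at an unadjusted p under 0.05 for 2 probe sets, both of *Bcl2l11* and both higher at day 14, where 2.67% of all probe sets did, and the lowest adjusted p in limma was 0.998. As shares of the members these counts were 13.5% at day 3, 0% at day 7, 5.41% at day 14 and 5.41% for day 14 against day 3.

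Group means of 1 member probe set lay 2-fold apart, a difference of 1 or more on the log2 scale. It was a *Bcl2* probe set at day 3, which made 1 of 37, against 1.53% of all probe sets. No member reached 2-fold at day 7 (0.293% of all), at day 14 (2.11%) or between day 14 and day 3 (0.415%). Leaving out day 3 replicate 1 or day 0 replicate 2 gave a count of 0 at day 3, and leaving out day 3 replicate 2 gave 2.

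Arrays that did not overlap with the control arrays were common over the whole array, and the members are read against that. Both day 3 arrays lay above both control arrays for 8 of 37 member probe sets (21.6%, against 24.7% of all) and below them for another 8 (21.6%, against 17.8%). At day 7 the counts were 3 above (8.11%, against 12.3% of all) and 6 below (16.2%, against 12.3%). At day 14 they were 13 above (35.1%, against 27.7%) and 7 below (18.9%, against 18.3%), and the count above was 8 after a further quantile normalization. Both day 14 arrays lay above both day 3 arrays for 7 (18.9%, against 13.0%) and below them for 5 (13.5%, against 13.1%). Killer members, which had 18 of the 37 probe sets, made up 6 of the 8 above control and 3 of the 8 below it at day 3. They made up 2 of the 3 above and 5 of the 6 below at day 7, then 8 of the 13 above and 3 of the 7 below at day 14. Whether killer and survival members differed was not tested. The median log2 fold was 0.12 for the 18 killer probe sets and -0.07 for the 19 survival probe sets at day 3, -0.07 and -0.09 at day 7, and 0.08 for both at day 14. Over all probe sets it was 0.04, 0.00 and 0.05.

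*Bcl2*, the first known survival gene of the family, was measured by 5 probe sets, and all 5 had a day 3 mean below the control mean (-1.10 to -0.01). On 1437122_at, the most variable of them, the values were 0.40 and 0.70 on the control arrays, -0.96 and -0.12 at day 3, 0.75 and -0.45 at day 7, then 0.12 and -0.14 at day 14. Both arrays of day 3 and of day 14 lay under both control arrays, while the day 7 arrays lay on either side of them. The log2 fold was -1.10 ± 0.43 at day 3 (standard error, n = 2 arrays each, adjusted p = 0.474 in limma), -0.40 ± 0.43 at day 7 and -0.56 ± 0.43 at day 14. It was -0.68 at day 3 without day 3 replicate 1 and -1.52 without day 3 replicate 2. Another probe set, 1457687_at, followed a like course, with -0.73 and -0.06 at day 3 against 0.19 and 0.24 in control, whereas the remaining 3 probe sets differed from control by -0.12 to -0.01 at day 3.

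*Bcl2l1*, which encodes BCL-XL and also the shorter killer form BCL-XS by splicing, had 4 probe sets that did not agree among themselves. On 1426191_a_at the values were -0.05 and 0.41 in control, 0.69 and -0.26 at day 3, 0.05 and 2.05 at day 7, then -0.08 and -0.47 at day 14. The value of 2.05 on day 7 replicate 2 was the highest of any member on any array, and 1420887_a_at also had its highest value there (1.24). The log2 fold at day 7 was 0.87 ± 0.64 (adjusted p = 1 in limma), and without day 7 replicate 2 it was -0.12. On the same array 1420888_at and 1426050_at had their lowest values, -0.30 and -0.13. Which splice form each probe set reads was not determined here.

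*Bcl2l2*, which encodes BCL-W, a survival protein of neurons and testis, differed most on 1430454_x_at. Its values were -0.23 and -0.35 in control, -0.09 and 0.28 at day 3, -0.01 and 0.03 at day 7, then 0.01 and 0.31 at day 14. All 6 arrays of hyperoxic retinas lay above both control arrays, with log2 folds of 0.38 ± 0.18 at day 3, 0.30 ± 0.18 at day 7 and 0.45 ± 0.18 at day 14 (adjusted p = 0.594 in limma, unadjusted p = 0.044). Without day 14 replicate 2 the day 14 fold was 0.30. A probe set of this type may share probes with other transcripts. Of the other 3 probe sets, 1423572_at had folds of the opposite sign at all 3 times (-0.28, -0.14 and -0.17). The most variable one, 1430453_a_at, stood at -0.34 and 0.02 in control, 0.33 and 0.05 at day 3, -0.27 and 0.75 at day 7, then -0.02 and -0.04 at day 14, and overlapped with control at day 7 and day 14.

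*Mcl1*, a short-lived survival protein, had 6 probe sets, and all 6 had a day 14 mean above the day 3 mean (0.07 to 0.51). On 1456381_x_at the values were 0.20 and -0.42 in control, -0.63 and 0.81 at day 3, 0.00 and -0.71 at day 7, then 0.00 and 0.87 at day 14. This probe set was high on day 3 replicate 2 and day 14 replicate 2 and low on day 3 replicate 1 and day 7 replicate 2, so the groups overlapped. The log2 folds came to 0.20 ± 0.54 at day 3, -0.24 ± 0.54 at day 7 and 0.54 ± 0.54 at day 14, and when replicate 2 of day 3 and of day 14 were left out they were -0.53 at day 3 and 0.11 at day 14. On day 3 replicate 1 and day 7 replicate 2, 1437527_x_at (-0.78 and -0.63), 1456243_x_at (-0.64 and -0.60) and 1416880_at (-1.03 and -0.57) were low too. The beta-actin 3' to 5' difference was highest and lowest on the same arrays, and its part in the *Mcl1* values was not tested. In contrast 1416881_at had its highest value, 1.02, on day 7 replicate 2.

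**Figure D1:**
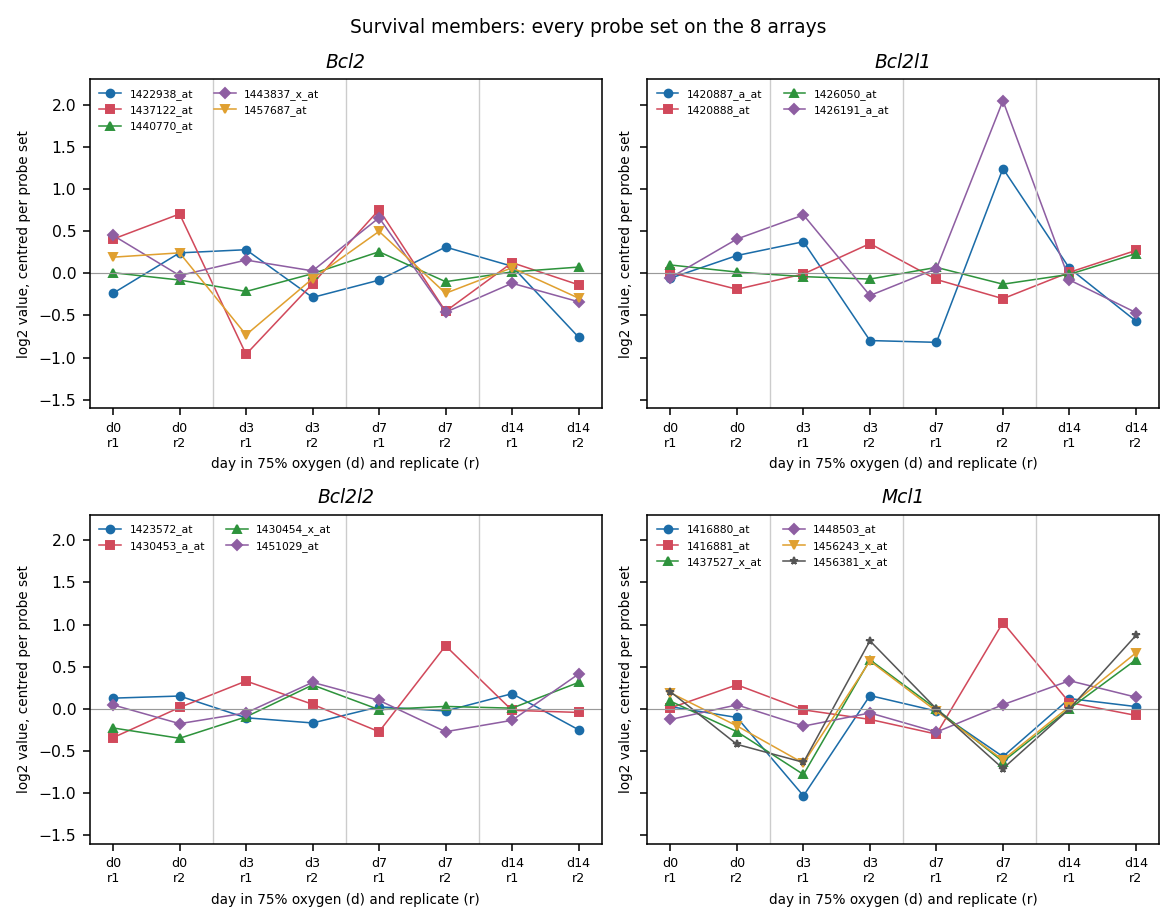
Centred log2 values of every probe set of the 4 survival members (vertical axes) on the 8 arrays (horizontal axes), where d is the day in 75% oxygen and r the replicate. Each symbol is 1 array, and the lines only trace a probe set. *Bcl2l1* 1426191_a_at reached 2.05 on day 7 replicate 2, and 4 of the 6 *Mcl1* probe sets were low on day 3 replicate 1 and day 7 replicate 2.

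*Bcl2l11* encodes BIM, a killer that binds every survival member and whose gene is switched on by FOXO factors in neurons deprived of growth factors. Its promoter is shown because FOXO factors were among the pathway genes compared. The window runs from 250 bases before to 50 bases after a transcript start and lies at chr2:128125788-128126087 on the plus strand of GRCm38.p6 (RefSeq), and the capitals mark a match to the FOXO motif GTAAACA, which begins at position -227 from the start.
Bcl2l11 promoter: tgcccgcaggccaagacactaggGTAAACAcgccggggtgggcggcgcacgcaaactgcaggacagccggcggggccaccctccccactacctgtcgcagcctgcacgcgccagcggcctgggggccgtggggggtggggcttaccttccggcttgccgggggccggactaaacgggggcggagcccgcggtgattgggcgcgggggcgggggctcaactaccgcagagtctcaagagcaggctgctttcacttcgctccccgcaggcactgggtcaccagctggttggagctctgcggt
Windows were matched for 9 of the 10 members (15 windows). GTAAACA on either strand was in 1 of these 15 and in 3.65% of all 32851 windows. The AP-1 motif TGANTCA was in 0 of 15 (7.81% of all), the STAT motif TTCNNNGAA in 0 (8.30%) and the E2F motif TTTCGCGC in 1, a *Bcl2l1* window (0.323%). None of the other motifs was in the printed window, and a match is a string of letters and no evidence of binding.

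*Bcl2l11* was lower at day 3 than in control on 4 of its 5 probe sets, by group means. On 1456006_at the values were 0.09 and -0.09 in control, -0.64 and -0.37 at day 3, 0.09 and 0.20 at day 7, then -0.10 and 0.11 at day 14. Both day 3 arrays were the lowest of the 8, and the control, day 7 and day 14 arrays lay together, with day 7 replicate 1 and day 0 replicate 1 at nearly the same value. The log2 fold was -0.50 ± 0.16 at day 3 (95% interval -0.89 to -0.12, unadjusted p = 0.018, adjusted p = 0.471 in limma), 0.15 ± 0.16 at day 7 and 0.01 ± 0.16 at day 14.

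On 1435448_at the *Bcl2l11* values were 0.17 and 0.06 in control, -0.74 and -0.18 at day 3, -0.02 and -0.45 at day 7, then 0.02 and 0.24 at day 14. Both day 3 arrays again lay under both control arrays, and so did both day 7 arrays. The log2 folds were -0.58 ± 0.23 at day 3 (adjusted p = 0.478 in limma) and -0.35 ± 0.23 at day 7. Leaving out day 3 replicate 1 gave -0.30 at day 3, and 0.31 for day 14 against day 3. Day 14 exceeded day 3 by 0.59 ± 0.23 on this probe set and by 0.51 ± 0.16 on 1456006_at (adjusted p = 0.998 for both in limma). The third low probe set, 1456005_a_at, stood at -1.37 and 0.21 at day 3 against 0.33 and -0.11 in control, and its fold of -0.69 ± 0.52 rested on day 3 replicate 1, without which it was 0.10. It stood at 0.11 and -0.37 at day 7 and at -0.35 and 0.39 at day 14. The 2 remaining probe sets, 1426334_a_at and 1435449_at, differed from control by 0.07 and -0.07 at day 3 and were both highest on day 7 replicate 2, at 0.61.

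*Bik*, a killer found at the endoplasmic reticulum, had a day 3 and a day 14 mean above control on all 3 probe sets (0.17 to 0.27 at day 3 and 0.04 to 0.38 at day 14). On 1420362_a_at the values were -0.12 and 0.00 in control, 0.00 and 0.23 at day 3, -0.25 and -0.25 at day 7, then 0.07 and 0.56 at day 14. The day 7 arrays were the lowest and lay under both control arrays, and the day 14 arrays lay above them. The log2 folds came to 0.17 ± 0.19 at day 3, -0.19 ± 0.19 at day 7 and 0.38 ± 0.19 at day 14 (adjusted p = 0.649 in limma), and the last was 0.13 without day 14 replicate 2. The study names this gene, as Bcl2 interacting killer-like (*Biklk*), among the death promoters it found prominent at day 14.

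*Bmf*, a killer tethered to the cytoskeleton until a cell loses its attachment, gave opposite signs on its probe sets. On 1454880_s_at the values were -0.22 and -0.31 in control, -0.51 and 0.49 at day 3, 0.04 and -0.04 at day 7, then 0.18 and 0.48 at day 14. The day 7 and day 14 arrays lay above both control arrays, with log2 folds of 0.27 ± 0.31 and 0.60 ± 0.31 (adjusted p of 1 and 0.653 in limma), while the day 3 arrays held the lowest and the highest of the 8 values. On 1458325_x_at the values were 0.16 and 0.23 in control, -0.09 and -0.22 at day 3, 0.10 and -0.10 at day 7, then -0.08 and 0.08 at day 14, so all 6 arrays of hyperoxic retinas lay under both control arrays. Its log2 fold at day 3 was -0.35 ± 0.14 (unadjusted p = 0.047, adjusted p = 0.479 in limma). Both of these probe sets are of types that may share probes with other transcripts. The third, 1422995_at, had folds of -0.16 to -0.06.

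*Hrk*, known as harakiri and induced through JUN in neurons that lose their trophic support, had the smallest unadjusted p of any member at day 14. On 1450366_at the values were -0.31 and -0.11 in control, 0.17 and 0.11 at day 3, -0.25 and -0.35 at day 7, then 0.21 and 0.44 at day 14. All arrays of day 3 and day 14 lay above both control arrays, and the day 7 arrays overlapped with control. The log2 folds came to 0.35 ± 0.15 at day 3, -0.09 ± 0.15 at day 7 and 0.54 ± 0.15 at day 14 (95% interval 0.18 to 0.89, unadjusted p = 0.0092, adjusted p = 0.462 in limma). The day 14 fold was 0.42 without day 14 replicate 2. The other probe set, 1439854_at, had folds of 0.02 ± 0.25, 0.08 ± 0.25 and 0.29 ± 0.25 at the 3 times.

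*Bid*, which links death receptors to the mitochondrion once a caspase has cut it, had 3 probe sets. On 1417045_at the values were -0.37 and -0.03 in control, -0.02 and 0.50 at day 3, -0.16 and 0.41 at day 7, then 0.02 and 0.22 at day 14. The day 3 and day 14 arrays lay above both control arrays, though day 3 replicate 1 and day 0 replicate 2 had nearly the same value. The log2 folds came to 0.44 ± 0.26 at day 3, 0.32 ± 0.26 at day 7 and 0.32 ± 0.26 at day 14 (adjusted p of 0.583, 1 and 0.753 in limma), and the day 3 fold was 0.18 without day 3 replicate 2. The day 7 fold was 0.037 without day 7 replicate 2, and the day 14 fold 0.14 without day 0 replicate 1. On 1447873_x_at day 3 exceeded control by 0.36 ± 0.15, and on 1448560_at the fold was -0.08 ± 0.27.

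*Bad*, a killer held inactive by growth factor kinases, followed the same course on both of its probe sets. On 1416583_at the values were -0.01 and -0.18 in control, 0.58 and 0.20 at day 3, -0.25 and -0.33 at day 7, then 0.01 and 0.24 at day 14. The day 3 and day 14 arrays lay above both control arrays and the day 7 arrays lay below them. The log2 folds were 0.48 ± 0.18 at day 3 (unadjusted p = 0.031, adjusted p = 0.472 in limma), -0.19 ± 0.18 at day 7 and 0.22 ± 0.18 at day 14. Leaving out day 3 replicate 1 gave 0.29 at day 3, and leaving out day 3 replicate 2 gave 0.67. On 1416582_a_at the values were 0.04 and -0.25 in control, 0.32 and 0.11 at day 3, -0.32 and -0.55 at day 7, then -0.04 and 0.52 at day 14, with log2 folds of 0.32, -0.33 and 0.35 (standard error 0.22). Its day 14 arrays overlapped with control. Leaving out single arrays gave 0.18 to 0.47 at day 3, -0.47 to -0.18 at day 7 and, with day 14 replicate 2 or replicate 1 left out, 0.073 and 0.63 at day 14.

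**Figure D2:**
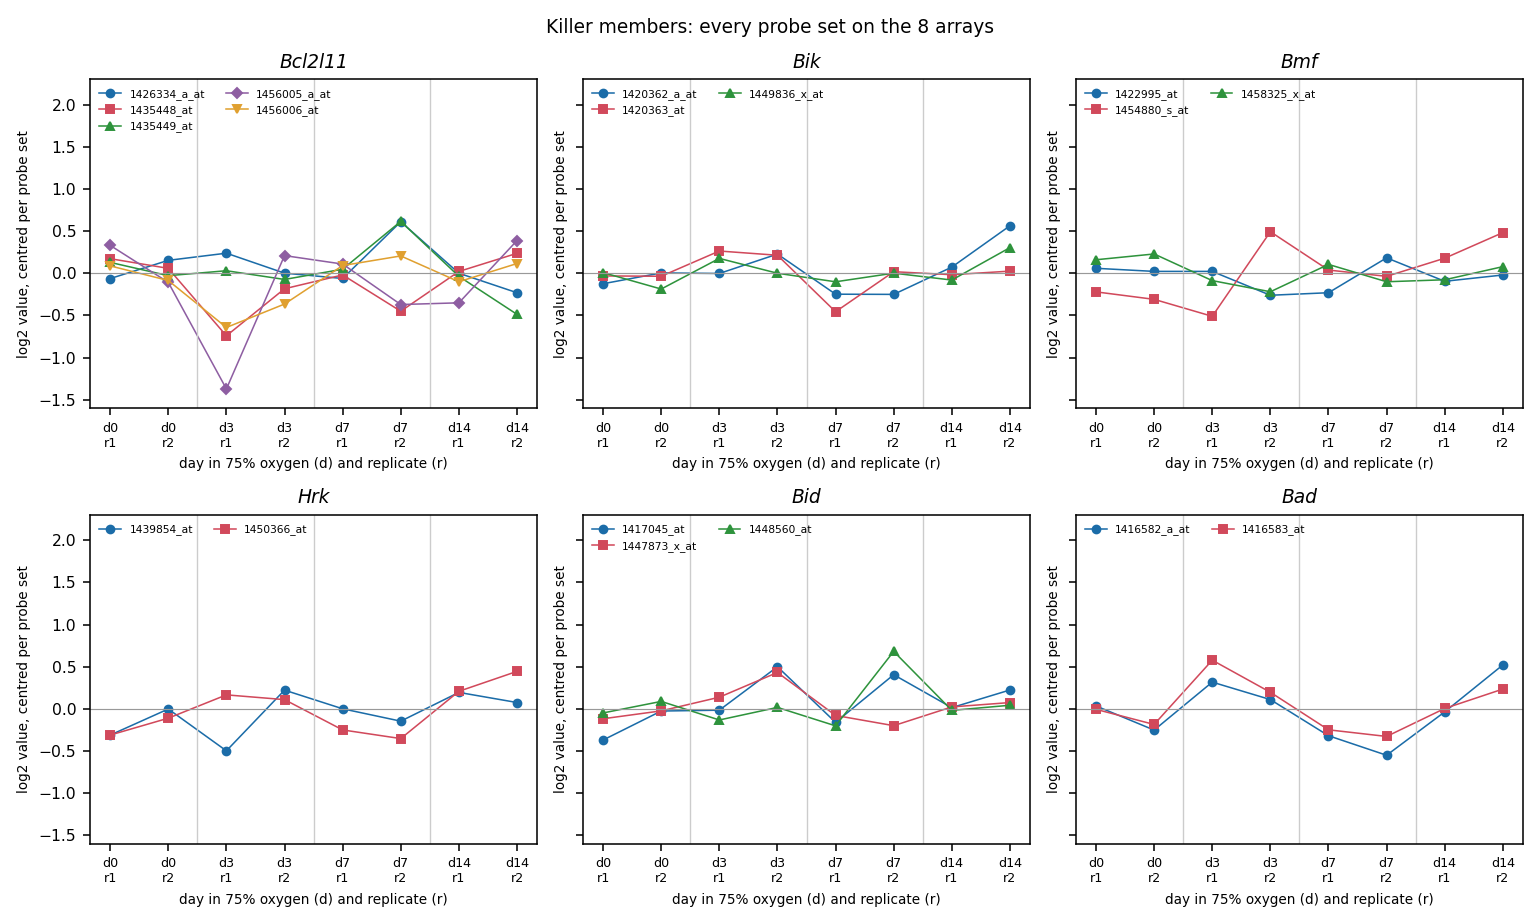
Centred log2 values of every probe set of the 6 killer members (vertical axes) on the 8 arrays (horizontal axes), drawn on the scale used for the survival members. *Bcl2l11* 1456005_a_at stood at -1.37 on day 3 replicate 1, and both *Bad* probe sets lay between -0.55 and -0.25 on both day 7 arrays.

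**Figure D3:**
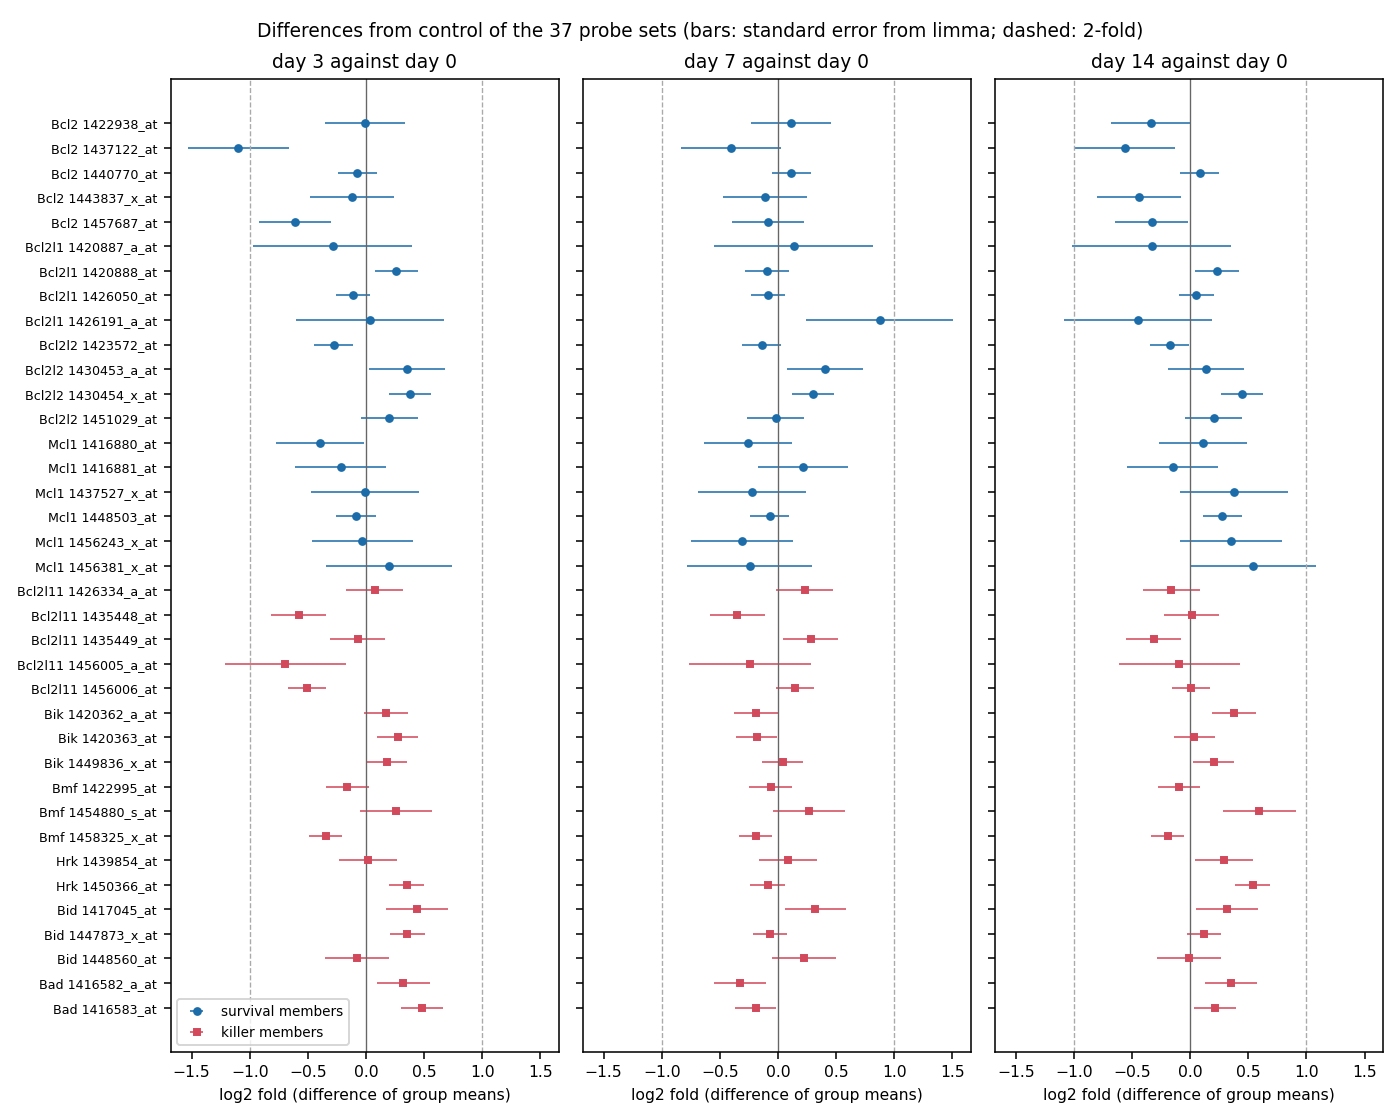
Log2 fold against control (difference of group means, horizontal axes) at day 3, day 7 and day 14 for each of the 37 probe sets (rows), with circles for survival and squares for killer members. Bars are standard errors from limma (n = 2 arrays a group) and dashed lines mark 2-fold. One probe set, of *Bcl2* at day 3, lay past a dashed line, at -1.10 ± 0.43.

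When the probe sets of each gene were averaged and 18193 genes tested, 0 of the 10 members passed an adjusted p under 0.05 in limma. Nor did any other gene, with a lowest adjusted p of 0.423 in limma over all 18193. *Hrk* at day 14 had the smallest p among the members, with a log2 fold of 0.41 ± 0.16 (95% interval 0.04 to 0.79, adjusted p = 0.617 in limma). At day 3 the means farthest from control were those of *Bad* (0.40 ± 0.19), *Bcl2* (-0.38 ± 0.22) and *Bcl2l11* (-0.35 ± 0.16), with adjusted p of 0.473 to 0.525 in limma. The widest intervals were those of *Bcl2l1*, from -0.72 to 0.67 at day 3, and *Mcl1*, from -0.73 to 0.55, so differences of up to 0.55 in size for these genes lie inside the error.

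Arrays of one time often lay farther apart than the 4 group means. The largest gap between 2 arrays of a time exceeded the range of the group means for 26 of the 37 member probe sets (70.3%, against 67.1% of all probe sets). The median gap was 0.57 and the median range 0.45 for the members, against 0.43 and 0.34 for all probe sets. *Bcl2l1* had the widest gaps, 2.06 on 1420887_a_at and 1.99 on 1426191_a_at, both between the day 7 arrays. *Hrk* 1450366_at, *Bcl2l11* 1456006_at and both *Bad* probe sets were among the 11 in which the group means spread wider than any pair of arrays of one time.

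Extreme values were spread unevenly over the arrays. The array labelled day 7 replicate 2 was highest for 10 of the 37 member probe sets and lowest for another 10 (27.0% each). Of all probe sets it was highest for 14.5% and lowest for 18.0%. The array labelled day 14 replicate 2 was highest for 12 (32.4%, against 20.9% of all). Day 3 replicate 1 was lowest for 11 (29.7%, against 20.1% of all). On day 7 replicate 2 the SD over the member probe sets was 0.58, against 0.41 over all probe sets, and on day 14 replicate 1 it was 0.12 against 0.19.

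Probe sets of one gene differed most often on some arrays. On day 7 replicate 2 the highest and lowest probe sets lay 2.35 apart for *Bcl2l1*, 1.73 for *Mcl1* and 1.07 for *Bcl2l11*, and on day 3 replicate 1 they lay 1.61 apart for *Bcl2l11* and 1.24 for *Bcl2*. A spread of 0.5 or more was found for 6 of the 10 members on day 3 replicate 1 (40.5% of the 8861 genes with 2 to 6 probe sets), 6 on day 7 replicate 2 (39.4%) and 7 on day 14 replicate 2 (35.4%). It was also found for 5 on day 0 replicate 2 (19.1%), 4 on day 3 replicate 2 (30.9%) and 2 on day 7 replicate 1 (11.05%). The count was 1 on day 0 replicate 1 (10.5%) and 0 on day 14 replicate 1 (7.18%). *Bad* had the closest probe sets, never more than 0.29 apart, and it had only 2 of them. A spread of this kind can only widen as probe sets are added. The 8861 genes were not matched to the members on the number of probe sets.

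**Figure D4:**
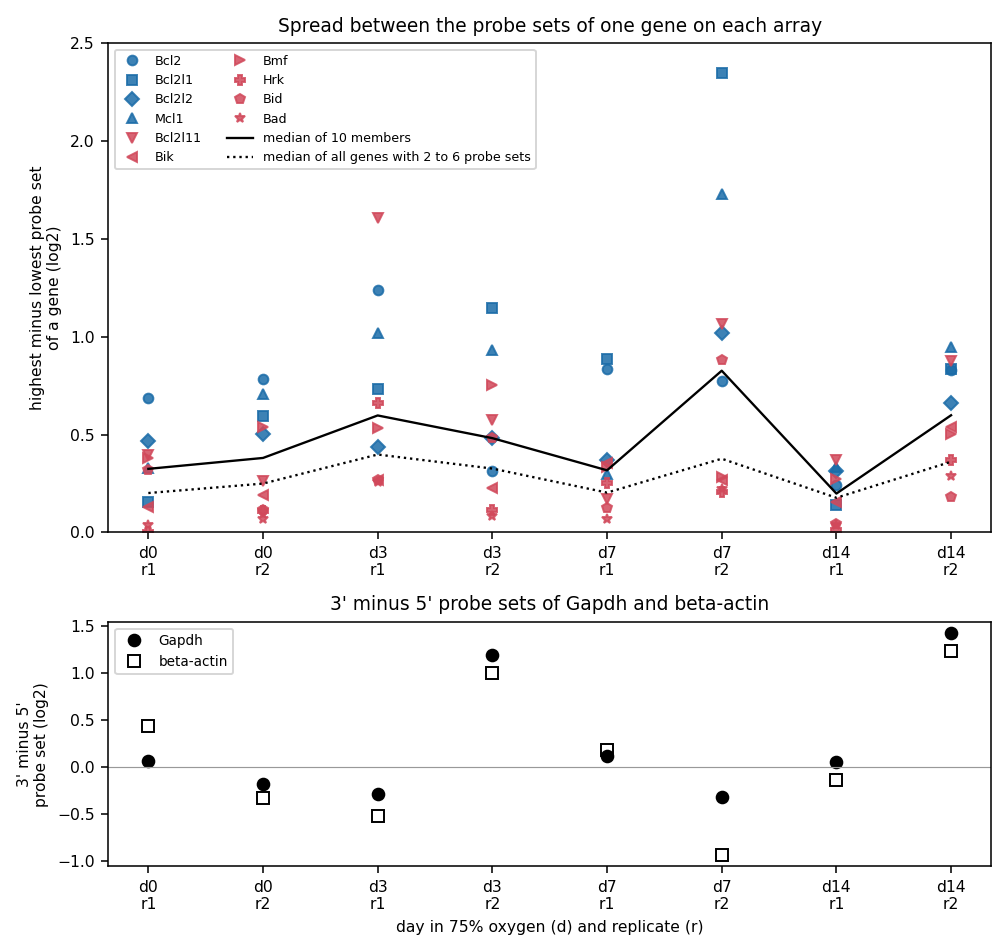
Upper panel, the difference between the highest and lowest probe set of each member (log2, vertical axis) on each array, with the median of the 10 members (solid line) and of all 8861 genes with 2 to 6 probe sets (dotted line). Lower panel, the 3' minus the 5' probe set of *Gapdh* and of beta-actin (log2). The median of the members was 0.83 on day 7 replicate 2, against 0.38 for all genes, and 0.20 on day 14 replicate 1, against 0.18. Members and all genes were not matched on their number of probe sets, with which this difference can only widen.

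Other genes of the cell death pathway were followed as lists, and in each list 0 probe sets passed an adjusted p under 0.05 in limma in any comparison. The background for these lists is the share of everything tested that had an unadjusted p under 0.05, which came to 10.3%, 0.864% and 8.27% in the order of the times. In the rest of the BCL2 family, 15 of the 21 listed genes were measured by a probe set of their own, with 36 probe sets. Of these, 3 were higher and 2 lower at an unadjusted p under 0.05 at day 3, 0 differed at day 7, and 2 were higher and 2 lower at day 14, which made 13.9%, 0% and 11.1% of the list. *Bbc3*, which encodes the killer PUMA, stood at -0.17 and -0.28 in control, 0.58 and 0.38 at day 3, -0.31 and -0.15 at day 7, then 0.27 and 0.15 at day 14. The day 3 arrays were the highest and did not overlap with any other time, and the log2 folds were 0.70 ± 0.15 at day 3 and 0.43 ± 0.15 at day 14 (adjusted p of 0.471 and 0.526 in limma).

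Among the caspases and the proteins that activate them (13 of 15 listed genes, 24 probe sets), 5 were higher and 2 lower at an unadjusted p under 0.05 at day 3, and the counts were 0 at day 7 and 2 and 1 at day 14 (29.2%, 0% and 12.5% of the list). *Casp9* 1457816_at, for the initiator caspase of the mitochondrial path, had a log2 fold of 0.48 ± 0.14 at day 3 (adjusted p = 0.471 in limma). *Casp1* 1449265_at, for an inflammatory caspase, had 0.48 ± 0.13 at day 14 (adjusted p = 0.468 in limma). *Diablo* 1425768_at, for a mitochondrial protein that frees caspases from their inhibitors, had -0.83 ± 0.24 at day 14 (adjusted p = 0.475 in limma). The median log2 fold of this list was 0.17 at day 3 and 0.13 at day 14, against 0.04 and 0.05 for all probe sets. Of the caspase inhibitors (9 of 10 genes, 25 probe sets), 0 were higher and 2 lower at day 3, 0 differed at day 7, and 2 were higher and 1 lower at day 14 (8%, 0% and 12%). *Xiap* 1437533_at, for the best known of them, had folds of -0.87 ± 0.33 at day 3 and -0.91 ± 0.33 at day 14, whereas *Xiap* 1450231_a_at stood at 2.81 on day 7 replicate 2. Among the death receptors and their partners (11 of 12 genes, 19 probe sets), 0 differed at day 3 and day 7, and 1 was higher at day 14 (5.26%), *Tnfrsf10b* (0.37 ± 0.12).

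The transcription factors that act on members (9 of 11 genes, 22 probe sets) had 1 higher and 1 lower at an unadjusted p under 0.05 at day 3, and 0 at day 7 and day 14 (9.09%, 0% and 0%). One probe set lay 2-fold above control at day 3 and 1 at day 14. It was the same probe set at both times, of *Bcl3*, a regulator of NFκB. Its values were -0.47 and -0.17 in control, 0.09 and 2.65 at day 3, -0.36 and -0.09 at day 7, then 0.40 and 2.41 at day 14. It was high on replicate 2 of day 3 and of day 14, and its day 14 fold of 1.72 ± 0.90 had an adjusted p of 0.653 in limma. *Foxo1* 1416982_at stood at 0.18 and 0.12 in control, -1.06 and -0.32 at day 3, 0.17 and -0.12 at day 7, then 0.15 and -0.15 at day 14. Like the *Bcl2l11* probe set 1456006_at, it was lowest on both day 3 arrays, with a log2 fold of -0.84 ± 0.26 at day 3 (adjusted p = 0.471 in limma). *Foxo3* 1450236_at went the other way, with 0.11 and 0.17 at day 3 against -0.09 and -0.33 in control. Whether either factor had a part in the *Bcl2l11* values was not tested. *Jun*, which acts on *Hrk*, stood at -0.93 and -0.15 at day 3 and at 0.11 and 0.09 at day 14, against 0.01 and -0.01 in control, and day 14 exceeded day 3 by 0.64 ± 0.25. At day 3 the *Jun* arrays lay under control. Those of *Hrk* 1450366_at lay above control, and those of *Hrk* 1439854_at, at -0.50 and 0.22, lay on either side of it. Whether *Jun* had a part in the *Hrk* values was not tested. Among the kinases and binding partners of the members' proteins (16 of 17 genes, 68 probe sets), 1 was higher and 3 lower at day 3, 0 differed at day 7, and 4 were lower at day 14 (5.88%, 0% and 5.88%). *Mapk8*, the JUN kinase that phosphorylates BIM and BMF, had folds of -1.01 ± 0.38 at day 3 and -1.40 ± 0.38 at day 14 on 1437045_at, while 1420931_at had 0.98 ± 0.51 at day 7.

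Of the listed apoptosis genes that the study names (6 of 7, 22 probe sets), 4 were higher and 1 lower at an unadjusted p under 0.05 at day 3, and 0 differed at day 7 and day 14 (22.7%, 0% and 0%). The member *Bik*, which the study also names, is not in this list. By group means, 3 listed probe sets lay 2-fold above control at day 3, and 2 lay 2-fold above and 2 below it at day 14. Of all probe sets 1.53% and 2.11% lay 2-fold apart at these times. The study chose the listed genes on the same arrays, so their direction here is not independent evidence. It also measured *Bcl3*, *Gadd45b* and *Siva1* by quantitative PCR in biological groups of mice, and reported all of them above control at day 14. *Siva1*, whose protein binds BCL-XL, had log2 folds of 0.90 ± 0.28 at day 3 and 0.67 ± 0.28 at day 14 (adjusted p of 0.471 and 0.604 in limma). *Igf1r*, the receptor of a survival factor, had -0.79 ± 0.29 at day 3 (adjusted p = 0.471 in limma).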

How the data were processed

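Arrays were grouped by the day in each title. The authors deposited log2 values, for which the submitters' processing notes name RMA without a version (background correction, quantile normalization and probe summary). Each row has a median of 0 (to within 5e-07), so the values were also centred, a step that is not described, and no filter on low signal could be applied. The paper's methods describe another processing, not used here. The table's 64 control probe sets were left out.

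The 4 group means were compared in R 4.3.3 with lmFit and eBayes of limma 3.58.1 (4 residual and 2.71 prior degrees of freedom), with Benjamini-Hochberg adjustment over all 45037 probe sets at 0.05. The number of arrays limits the precision, with a median standard error of 0.24 (0.14 to 0.68) over the member probe sets. The fit was tested on simulated data.

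Values on all arrays are given for the most variable probe set of each member and for any other that differed by 2-fold or had an unadjusted p under 0.05, and those given in passing were chosen after their values were seen. List genes are those with the smallest p in a comparison, each on its own probe set of smallest p. Their other probe sets are mostly not shown and may differ. The members and lists were chosen with earlier results of these data known. Symbols come from the platform's annotation and promoters from RefSeq (GRCm38.p6), matched by symbol.

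The alternatives were a second quantile normalization, centring arrays on their medians, a replicate block, robust eBayes, fits of only the compared times, folds from linear means, gene means, the methods' analysis of variance, and leaving out arrays singly or, together, replicate 2 of day 3 and of day 14. A lone array of a time is then taken to vary as the other times do. Counts of arrays above or below control under other scalings were added after the data were seen. A trend in eBayes was not run, since the values hold no level.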

Additional observations from a re-analysis of the deposited data

Results flagged for a closer look

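Among the members, 3 probe sets had their day 3 arrays and their day 7 arrays on opposite sides of both control arrays (8.11%, against 3.63% of all probe sets). *Bcl2l11* 1456006_at had log2 folds of -0.50 at day 3 and 0.15 at day 7, so that day 7 exceeded day 3 by 0.65 ± 0.16 (adjusted p = 0.347 in limma for this difference). *Bad* 1416582_a_at had 0.32 and -0.33, a difference of -0.65 ± 0.22 (adjusted p = 0.364 in limma), and *Bad* 1416583_at had 0.48 and -0.19, a difference of -0.67 ± 0.18 (adjusted p = 0.347 in limma).

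Day 7 and day 14 lay on opposite sides of control for 2 member probe sets (5.41%, against 3.91% of all). *Bik* 1420362_a_at had folds of -0.19 at day 7 and 0.38 at day 14, a difference of 0.57 ± 0.19 (adjusted p = 0.440 in limma), and *Bad* 1416583_at had -0.19 and 0.22, a difference of 0.41 ± 0.18 (adjusted p = 0.497 in limma). No member did so between day 3 and day 14 (1.23% of all probe sets did). None of these 5 differences between times passed adjusted p in limma. The probe sets were picked for lying on opposite sides of control, which favours a difference, and for *Bcl2l11* day 7 replicate 1 and day 0 replicate 1 had nearly the same value.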

How the results depend on the processing

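No member probe set passed adjusted p in limma under any alternative run, and over 397 alternative values of the named folds the lowest adjusted p was 0.137. With a replicate block the count stayed at 0 in all 4 comparisons. The correlation of replicate differences between times ran from -0.40 to 0.55 and exceeded 0.1 in 2 of 6 pairs. These were day 0 with day 7 (0.44) and day 3 with day 14 (0.55). The replicate numbers thus had no common direction over the 4 times. Such correlations cannot settle whether arrays were handled in pairs or batches. The methods' analysis of variance was run here on all probe sets, where the study applied it to genes past 2-fold. At an unadjusted p under 0.05 it gave 3 member probe sets at day 3 (6.65% of all) and 3 at day 7 (3.03%). It gave 0 at day 14 (7.23%) and 1 between day 14 and day 3 (3.10%), and 0 after adjustment. None of those member probe sets had group means 2-fold apart. The 2-fold count ranged from 0 to 2 at day 3, 0 to 3 at day 7 and 0 to 4 between day 14 and day 3 when arrays were left out singly (3 at day 7 without day 7 replicate 1, 4 without day 3 replicate 2). With replicate 2 of day 3 and of day 14 both left out it was 2 at day 3 and 3 between day 14 and day 3, and with folds from linear means it was 1 at day 7. The count above control at day 14 was 8 after quantile normalization.

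Of the 37 named folds, 12 changed sign under some alternative. At day 3, *Bcl2l1* 1426191_a_at was -0.069 after quantile normalization and -0.025 as a gene mean, *Bmf* 1454880_s_at -0.25 with those arrays left out and -0.084 as a gene mean, and *Mcl1* 1456381_x_at -0.53 and -0.091. *Bcl2l11* 1456005_a_at was 0.013 at day 7 as a gene mean. With arrays left out singly, the ranges at day 3 were -0.44 to 0.51 (*Bcl2l1*), -1.48 to 0.10 (*Bcl2l11*), -0.25 to 0.76 (*Bmf*) and -0.53 to 0.92 (*Mcl1*) on these probe sets. At day 7 they were -1.01 to 0.20 (*Bcl2* 1437122_at), -0.12 to 1.87 (*Bcl2l1*), -0.11 to 0.91 (*Bcl2l2* 1430453_a_at), -0.19 to 0.0096 (*Hrk* 1450366_at) and -0.60 to 0.11 (*Mcl1*). At day 14 they were -0.46 to 0.28 (*Bcl2l11*) and -0.046 to 0.31 (*Bcl2l2* 1430453_a_at). The cause was not tested.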
